A study of Mus musculus with 6 samples.

Results

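The chemokine ligands examined here were the 10 genes Ccl2, Ccl5, Ccl7, Ccl9, Cxcl1, Cxcl2, Cxcl5, Cxcl10, Cxcl12 and Cxcl16, chosen by name from the 22880 genes of the table. They were measured in MC-38GFP cells, a mouse colon adenocarcinoma line that expresses green fluorescent protein, after growth as orthotopic tumors in the cecum wall of C57BL/6J mice. All cells carried the lentiviral plasmid pLKO.1-puro and had not been passaged in vivo. In 3 libraries the cells were controls labelled mock (Mock), and in 3 libraries HIF-1α had been knocked down (HIF-1α-KD). Living cells positive for GFP and negative for CD45 and CD31 were sorted from the tumors, and their polyadenylated RNA was sequenced. Neither the age of the mice nor the number of tumors behind a library is stated, so a p-value given here measures the spread between these libraries only.

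Chemokines are small secreted proteins that guide leukocytes along concentration gradients by binding G protein-coupled receptors, and they are held on cell surfaces and matrix by glycosaminoglycans. The CC family draws mainly monocytes, macrophages and T cells, whereas CXC ligands with a glutamate-leucine-arginine motif draw neutrophils and other CXC ligands draw lymphocytes. Tumor cells can make many of them, often under the control of NF-κB and interferon signaling, and the question posed by these libraries is whether the level of their transcripts depended on HIF-1α in tumor cells. Of the genes examined, 4 belong to the CC and 6 to the CXC family.

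Ccl2 was by far the most abundant chemokine transcript of the sorted cells, and Cxcl10 and Ccl7 followed. Levels of different genes were compared as FPKM, fragments per kilobase of gene scaled to the total reads of the library. Ccl2, the main attractant of monocytes that carry CCR2, had a mean of 276 ± 73.9 FPKM (SD, n = 6) and held between 43.6% and 72.3% of the summed FPKM of the 10 ligands. By its mean it ranked at 379 among all genes of the table. Cxcl10 followed with 99.3 ± 37.7 FPKM, Ccl7 with 51.4 ± 14.0, Cxcl1 with 27.4 ± 16.7 and Ccl5 with 22.5 ± 9.49 FPKM (SD, n = 6 each). Ccl9 (5.05 ± 2.28), Cxcl16 (4.36 ± 2.08) and Cxcl2 (2.69 ± 1.85) had few FPKM, and Cxcl5 (0.172 ± 0.149) and Cxcl12 (0.0607 ± 0.0516) had nearly none.

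**Figure D1:**
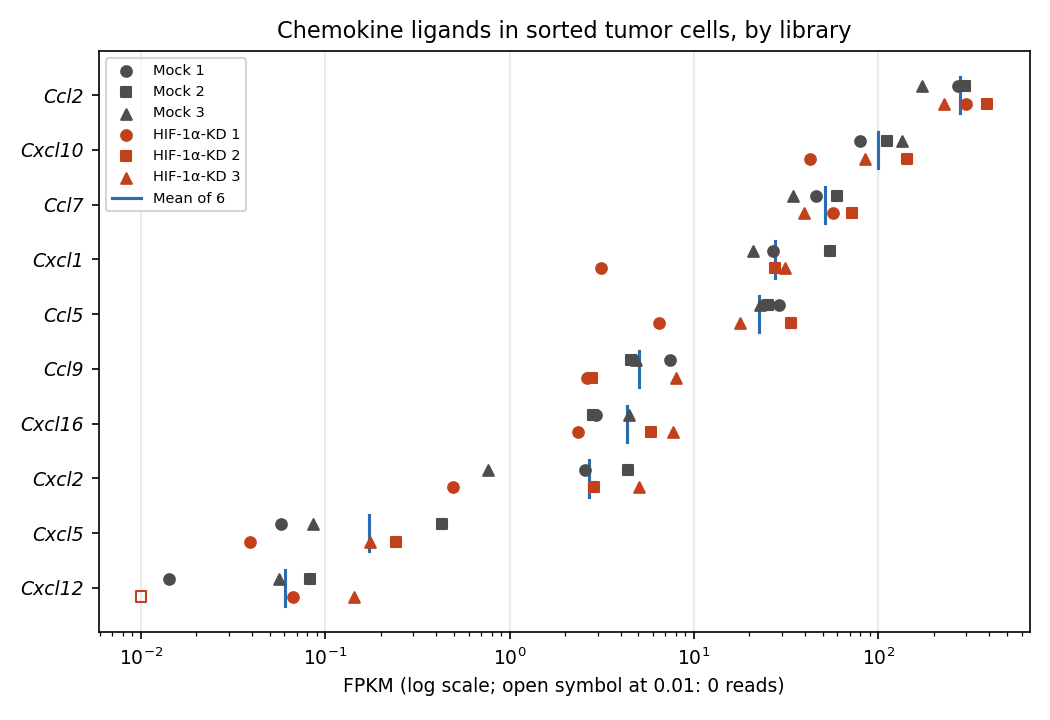
FPKM on a log axis of the 10 chemokine ligands in each library, with Mock libraries in grey, HIF-1α-KD libraries in red, the replicate number as the shape and the mean of 6 libraries as a blue line. Ccl2 lies between 172.8 and 391.2 FPKM, and HIF-1α-KD replicate 1 lies at 3.133 FPKM for Cxcl1, left of the other 5 libraries.

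Not every step of this order was larger than the spread between libraries. Ccl2 was above Cxcl10 in 6 of 6 libraries without overlap of their ranges, and so was Cxcl2 above Cxcl5. Ccl7 was above Cxcl1 in 6 of 6 libraries and Ccl5 above Ccl9 in 6 of 6, although the ranges over libraries overlapped in both pairs. Cxcl10 was above Ccl7, Ccl9 above Cxcl16, Cxcl16 above Cxcl2 and Cxcl5 above Cxcl12 in 5 of 6 libraries each. Cxcl1 was above Ccl5 in only 2 of 6 libraries, so that the order of these neighbours by mean does not hold library by library. Together the 10 ligands held between 81.1% and 90.9% of the FPKM of all 36 chemokine ligand genes found in the table. Among those 36 genes, the 5 most abundant were all among the 10, whereas Cxcl5 ranked at 23 and Cxcl12 at 25.

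No chemokine ligand passed the test for a difference between HIF-1α-KD and Mock cells. Cxcl5 and Cxcl12 had too few reads to pass the filter on low counts, and the other 8 were tested with limma on log2 of the normalized count (each count divided by a factor of its library) plus 1. Positive log2 fold changes mean more transcript in HIF-1α-KD cells. Of the 8, 0 had an adjusted p-value under 0.05, against 0.391% of the 12014 genes tested. At an unadjusted p-value under 0.05 there were 0 of 8, against 12.7% of all genes, and the 2 groups were without overlap for 0 of 8, against 19.2% of all genes. The edgeR and DESeq2 tests on the recovered reads called 0 of 8 too, at the adjusted and at the unadjusted threshold. The log2 fold change was above 0 for 3 of 8 ligands, against 52.7% of all genes, and below 0 for 5, with a median of -0.30 against 0.02 over all genes tested.

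**Figure D2:**
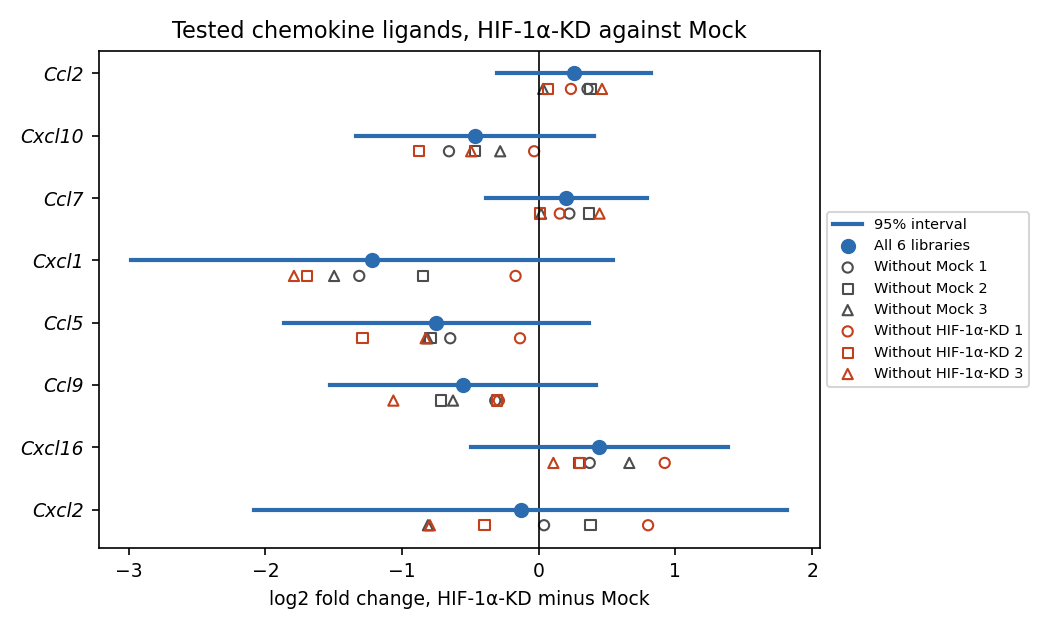
The log2 fold change (HIF-1α-KD minus Mock) of the 8 tested ligands with its 95% confidence interval in blue, and below it the value with each library left out in turn as open symbols. Every interval includes 0. Leaving out HIF-1α-KD replicate 1 moves Cxcl1 from -1.22 to -0.17 and Cxcl2 from -0.13 to 0.80.

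For Hif1a, the targeted gene, the Mock libraries held 6914, 5424 and 4945 normalized counts and the HIF-1α-KD libraries 697.3, 3142 and 1928, so its groups did not overlap, and HIF-1α-KD replicate 1 held the least. With a log2 fold change of -1.82 (SE 0.46) it was not under the adjusted threshold either (limma adjusted p = 0.219). Each library held between 19845791 and 30809327 reads on genes. Macrophage transcripts were present although cells with CD45 had been gated out, and the 10 macrophage and monocyte markers summed to between 164 and 187 FPKM in Mock libraries and to 104, 119 and 560 FPKM in HIF-1α-KD replicates 1, 2 and 3. Summed markers of T and NK cells lay between 0.0618 and 0.932 FPKM and those of neutrophils between 1.29 and 8.64 FPKM. Summed endothelial markers lay between 3.83 and 6.38 FPKM, mostly Cdh5, while Cldn5 had 1 read in all. Fibroblast markers summed to between 375 and 954 FPKM, mostly Dcn, and pericyte markers to between 19.5 and 53.9 FPKM. The 8 epithelial markers, among them Epcam, Cdh1 and keratins, were low for cells of colon epithelial origin and summed to between 1.38 and 3.13 FPKM in 5 libraries and to 14.6 FPKM in Mock replicate 3. In sorted pools of this kind, fewer cells that express a gene and less RNA per cell cannot be told apart.

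Ccl2 and Ccl7, which both bind CCR2 on monocytes, had the smallest SD within groups of the 8 tested ligands, 0.39 and 0.40 on the log2 scale against a median of 0.25 over all genes tested. They lie 8.26 kb apart on chromosome 11 of the mouse assembly GRCm38, Ccl2 (ENSMUSG00000035385) at 82035571 to 82037453 and Ccl7 (ENSMUSG00000035373) at 82045712 to 82047525. For Ccl2, normalized counts were 6603, 6808 and 4210 in Mock, against 7053, 8880 and 5145 in HIF-1α-KD libraries. The lowest value was that of Mock replicate 3 and the highest that of HIF-1α-KD replicate 2, with the groups overlapping between. The log2 fold change of Ccl2 was 0.26 (95% interval -0.31 to 0.82, limma adjusted p = 0.703), and with single libraries left out it lay between 0.03 (without Mock replicate 3, limma adjusted p = 0.968) and 0.46 (without HIF-1α-KD replicate 3, limma adjusted p = 0.506). In the latter case the groups did not overlap, as was then found for 30.8% of all genes.

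Ccl7, which also binds CCR1 and CCR3, reached normalized counts of 941.8, 1149 and 706.6 in Mock, against 1126, 1377 and 752 in HIF-1α-KD libraries. The same libraries were lowest and highest as for Ccl2. The log2 fold change of Ccl7 was 0.20 (95% interval -0.39 to 0.79, limma adjusted p = 0.786), and with single libraries left out it lay between 0.01 (without HIF-1α-KD replicate 2) and 0.44 (without HIF-1α-KD replicate 3). Ccl2 and Ccl7 were the 2 ligands whose intervals stayed within a change of 2-fold in either direction, from 0.809-fold to 1.76-fold for Ccl2 and from 0.764-fold to 1.73-fold for Ccl7. The upper limit passed 2-fold for Ccl2 without HIF-1α-KD replicate 3, Mock replicate 1 or Mock replicate 2 (1.01 to 1.04 on the log2 scale) and for Ccl7 without Mock replicate 2 (1.04). Their ratio in FPKM was nearly constant, between 4.97 and 5.89 over the 6 libraries, while each gene itself spanned over 2-fold (2.26-fold for Ccl2 and 2.09-fold for Ccl7). No stretch of 50 bases was shared between their annotated transcripts and those of another gene. Ccl2 overlaps Gm17268 on the opposite strand, and whether the counting used the strand is not given in the sources used here.

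**Figure D3:**
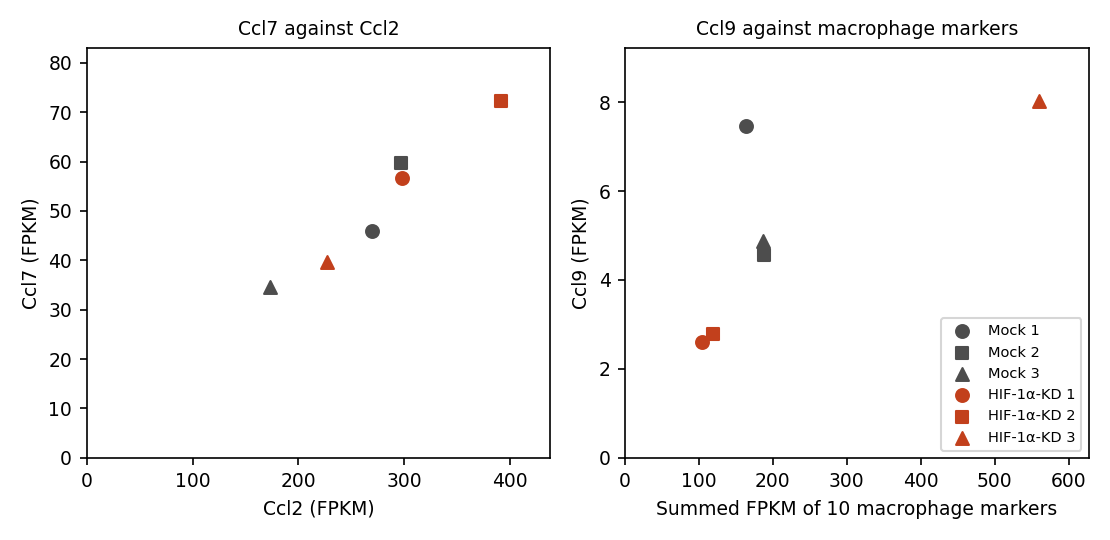
Left, FPKM of Ccl7 against FPKM of Ccl2. Right, FPKM of Ccl9 against the summed FPKM of 10 macrophage and monocyte markers, each point a library. Ccl7 and Ccl2 keep a ratio between 4.97 and 5.89, and for Ccl9 the lowest 2 libraries, HIF-1α-KD replicates 1 and 2, are also lowest in macrophage markers.

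Ccl5 and Ccl9 lie 42.4 kb apart on the minus strand of chromosome 11. Ccl5 (ENSMUSG00000035042, 83525778 to 83530518), known as RANTES, attracts T cells and monocytes. Its normalized counts were 443.2, 362.7 and 351.5 in Mock, against 96.52, 480.8 and 253 in HIF-1α-KD libraries. The Mock libraries lay close together (SD of 0.18 on the log2 scale), and the HIF-1α-KD libraries reached both below and above them (SD of 1.16). The log2 fold change of Ccl5 was -0.75 (95% interval -1.87 to 0.36, limma adjusted p = 0.562). It moved to -0.14 without HIF-1α-KD replicate 1 (limma adjusted p = 0.885) and to -1.29 without HIF-1α-KD replicate 2 (limma adjusted p = 0.438), where the groups did not overlap, as for 26.6% of all genes. The 6 T and NK cell markers had between 3 and 19 reads each over all 6 libraries, and their part in the level of Ccl5 was not tested.

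Ccl9 (ENSMUSG00000019122, 83572919 to 83578636), a ligand of CCR1 that macrophages and other myeloid cells also make, reached normalized counts of 325, 186.6 and 211.4 in Mock, against 110.2, 112.7 and 323.4 in HIF-1α-KD libraries. HIF-1α-KD replicates 1 and 2 lay below every Mock library, whereas replicate 3 reached the level of the highest Mock library. For Ccl9 the log2 fold change was -0.55 (95% interval -1.53 to 0.42, limma adjusted p = 0.625). In HIF-1α-KD replicate 3, Ccl9 had 2.97 times the mean FPKM of the other 2 HIF-1α-KD libraries, and the summed macrophage markers had 5.03 times. All 10 macrophage markers were highest in that library, among them Lyz2 (294.6 FPKM, against 54.5 to 80.6 in the other 5) and C1qa (68.5 FPKM, against 10.99 to 29.7), and their part in the level of Ccl9 was not tested. Without HIF-1α-KD replicate 3 the log2 fold change of Ccl9 was -1.06 (limma adjusted p = 0.258), and the groups no longer overlapped, as was then the case for 30.8% of all genes. It was -0.29 without HIF-1α-KD replicate 1, -0.31 without HIF-1α-KD replicate 2 and -0.32 without Mock replicate 1 (limma adjusted p between 0.835 and 0.902). About 1.97% of the 50-base stretches of Ccl9 transcripts occur in transcripts of other genes.

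Cxcl1, Cxcl2 and Cxcl5 are neutrophil attractants that act through CXCR2, and Cxcl1 and Cxcl2 varied most of the 8 tested ligands. All 3 lie on the plus strand of chromosome 5, with Cxcl1 (ENSMUSG00000029380) at 90891241 to 90893115, Cxcl2 (ENSMUSG00000058427) at 90903871 to 90905938 and Cxcl5 (ENSMUSG00000029371) at 90759360 to 90761624. The 250 bases before the start sites of Cxcl1 and Cxcl2 are shown because these neighbours shared their lowest library, and those of Cxcl10 for comparison. That library, HIF-1α-KD replicate 1, was lowest for 7 of the 10 ligands, Cxcl10 among them. RefSeq sequences of GRCm38.p6 were used, which were found for 5 of the 10 genes. Distances are counted from the RefSeq start, which lies shortly after the GENCODE gene start given above for Cxcl1 and Cxcl2, so the last bases of these windows lie within the GENCODE genes. Capitals mark matches to the κB consensus on either strand and, in Cxcl10 alone, also the match to TTTCNNTTTC, a core of interferon-stimulated response elements.
Cxcl1, chr5:90890995-90891244 (plus strand): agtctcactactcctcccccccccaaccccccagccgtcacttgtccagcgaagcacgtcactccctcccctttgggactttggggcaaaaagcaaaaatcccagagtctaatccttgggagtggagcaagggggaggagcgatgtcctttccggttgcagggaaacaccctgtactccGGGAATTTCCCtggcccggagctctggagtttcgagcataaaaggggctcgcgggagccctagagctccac
Cxcl2, chr5:90903649-90903898 (plus strand): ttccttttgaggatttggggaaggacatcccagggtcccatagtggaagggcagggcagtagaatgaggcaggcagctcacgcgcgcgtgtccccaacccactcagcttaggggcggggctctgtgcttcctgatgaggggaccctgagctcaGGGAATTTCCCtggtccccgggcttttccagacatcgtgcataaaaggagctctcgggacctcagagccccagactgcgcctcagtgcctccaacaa
Cxcl10, chr5:92348890-92349139 (minus strand): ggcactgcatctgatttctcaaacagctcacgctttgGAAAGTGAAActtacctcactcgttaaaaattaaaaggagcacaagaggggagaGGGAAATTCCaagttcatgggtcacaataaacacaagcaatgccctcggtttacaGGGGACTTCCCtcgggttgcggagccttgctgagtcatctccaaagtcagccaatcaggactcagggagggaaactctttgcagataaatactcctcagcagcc

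Cxcl1 and Cxcl2 each held a κB consensus match that reads the same 11 bases, GGGAATTTCCC, which covers overlapping matches on the 2 strands. It ended 61 bases before the start in Cxcl1 and 87 bases before it in Cxcl2. Cxcl10 held a match that ended 150 bases before the start, 3 overlapping matches (2 on the plus and 1 on the minus strand) between 94 and 104 bases before it, and the TTTCNNTTTC match 204 to 213 bases before it on the minus strand. A κB consensus match was found in 7.25% of 32851 promoter windows of this length, and in 4 of the 5 ligands with a sequence, Ccl9 being the fourth and Cxcl12 holding none. TTTCNNTTTC was found in 2.98% of windows. The hypoxia response core was searched as ACGTG, found in Cxcl1 and in 16.6% of windows, and as GCGTG, found in Cxcl2 and Cxcl10 and in 28.2% of windows. Binding was not measured, and these matches describe letters only.

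Normalized counts of Cxcl1 were 654.9, 1253 and 507.3 in Mock, against 74, 621.1 and 709.2 in HIF-1α-KD libraries. HIF-1α-KD replicate 1 was far below every other library, and the other 2 HIF-1α-KD libraries lay within the range of Mock. A log2 fold change of -1.22 was the lowest of the 8, and with a 95% interval of -2.98 to 0.54 it did not pass the test (limma adjusted p = 0.552). The level in HIF-1α-KD replicate 1 was 0.111 times the mean of the other 2 HIF-1α-KD libraries, and without that library the log2 fold change was -0.17 (limma adjusted p = 0.881). Without HIF-1α-KD replicate 3 it was -1.79 (limma adjusted p = 0.432).

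Normalized counts of Cxcl2 were 68.94, 111 and 20.54 in Mock, against 12.87, 71.94 and 125.9 in HIF-1α-KD libraries. It was lowest in HIF-1α-KD replicate 1 and highest in HIF-1α-KD replicate 3, so that the HIF-1α-KD libraries spanned the whole range of Mock. The log2 fold change of Cxcl2 was -0.13 (95% interval -2.08 to 1.82, limma adjusted p = 0.962) and turned above 0 with edgeR, with DESeq2 and without Mock replicate 1, Mock replicate 2 or HIF-1α-KD replicate 1. These counts rest on 16 to 116 reads per library. About 5.84% of the 50-base stretches of Cxcl2 transcripts are shared with Cxcl3, so a small part of its reads could belong to either gene. The SD within groups on the log2 scale was 1.37 for Cxcl1 and 1.46 for Cxcl2, where the median of all genes tested was 0.25, and 1.04% and 0.791% of genes had an SD at least that large.

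Cxcl5 was at the edge of detection, with 2, 18 and 3 reads in Mock and 2, 8 and 6 reads in HIF-1α-KD libraries, and 39 reads in all. The highest value was in Mock replicate 2, which was also highest for Cxcl1. No difference between groups could be detected for Cxcl5 at this depth. Without the filter its log2 fold change was -0.14 (95% interval -1.86 to 1.59, limma adjusted p = 0.959).

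Cxcl10 (ENSMUSG00000034855, chromosome 5, 92346638 to 92348889), the interferon-inducible ligand of CXCR3 on activated T cells, reached normalized counts of 1450, 1895 and 2438 in Mock, against 746.4, 2396 and 1415 in HIF-1α-KD libraries. In these counts HIF-1α-KD replicates 1 and 3 lay below every Mock library, while replicate 2 came close to the highest. In FPKM, HIF-1α-KD replicate 3 (84.4) lay above Mock replicate 1 (79.97), and HIF-1α-KD replicate 2 (142.4) was highest. For Cxcl10 the log2 fold change was -0.47 (95% interval -1.34 to 0.40, limma adjusted p = 0.646). Without HIF-1α-KD replicate 1 this value was -0.03 (limma adjusted p = 0.973), and without HIF-1α-KD replicate 2 it was -0.87 (limma adjusted p = 0.491). In the latter case the groups did not overlap in normalized counts, as for 26.6% of all genes, but they did in FPKM. The gene overlaps Art3 on the opposite strand.

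Cxcl16 (ENSMUSG00000018920, chromosome 11, 70453983 to 70459984) is made as a transmembrane protein that is shed by metalloproteases and binds CXCR6. Its normalized counts were 142.8, 128.2 and 213.8 in Mock, against 110.2, 261.4 and 343.1 in HIF-1α-KD libraries. HIF-1α-KD replicates 2 and 3 lay above every Mock library and replicate 1 below them all. For Cxcl16 the log2 fold change was 0.44 (95% interval -0.50 to 1.39, limma adjusted p = 0.69), and without HIF-1α-KD replicate 1 it was 0.92 (limma adjusted p = 0.283), without overlap of the groups, as was then found for 30.8% of all genes. Without HIF-1α-KD replicate 3, which held the most Cxcl16 and the most macrophage markers, it was 0.11 (limma adjusted p = 0.937). The gene overlaps Zmynd15 on the opposite strand.

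Cxcl12 (ENSMUSG00000061353, chromosome 6, 117168535 to 117181367), the ligand of CXCR4 that fibroblasts and other stromal cells typically make, had 1, 7 and 4 reads in Mock and 7, 0 and 10 reads in HIF-1α-KD libraries. The 0 reads of HIF-1α-KD replicate 2 allow up to 3 reads by counting error alone. Both groups were near the limit of detection and no difference could be detected at this depth. Without the filter its log2 fold change was -0.09 (95% interval -2.13 to 1.95, limma adjusted p = 0.98).

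HIF-1α-KD replicate 1, the library with the least Hif1a, was lowest of the 6 libraries for 7 of the 10 ligands and for 6 of the 8 tested ligands, where 22.1% of all genes tested were lowest in that library. The 7 were Cxcl1, Cxcl2, Cxcl5, Ccl5, Ccl9, Cxcl10 and Cxcl16. For Ccl9 the margin was small (110.2 normalized counts, against 112.7 in HIF-1α-KD replicate 2). Cxcl5 had 2 reads both there and in Mock replicate 1. Against the mean of the other 2 HIF-1α-KD libraries, the normalized count in HIF-1α-KD replicate 1 was 0.111 times for Cxcl1 and 0.130 for Cxcl2. It was 0.195 times for Cxcl5, 0.263 for Ccl5, 0.365 for Cxcl16, 0.392 for Cxcl10 and 0.505 for Ccl9. Ccl2 and Ccl7 did not share this, with 1.01 and 1.06 times. Summed FPKM of macrophage and monocyte (104), leukocyte (26.1), neutrophil (1.29), T and NK cell (0.0618) and endothelial markers (3.83) were lowest in that library. Those of B cell (5.36), fibroblast (570) and epithelial markers (3.13) were not, and that of pericyte markers (53.9) was highest there. The part of other cells in the low ligand levels was not tested. Ccl2 and Ccl7 together made up 86.0% of the summed FPKM of the 10 ligands in that library and between 52.3% and 68.3% in the other 5. All 8 tested ligands had a larger SD on the log2 scale among HIF-1α-KD than among Mock libraries, as had 45.2% of all genes tested. Without HIF-1α-KD replicate 1 the median log2 fold change of the 8 was 0.06, with 4 above 0. The median was -0.65 without HIF-1α-KD replicate 3 and -0.45 without Mock replicate 3, with 3 above 0 in each case.

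**Figure D4:**
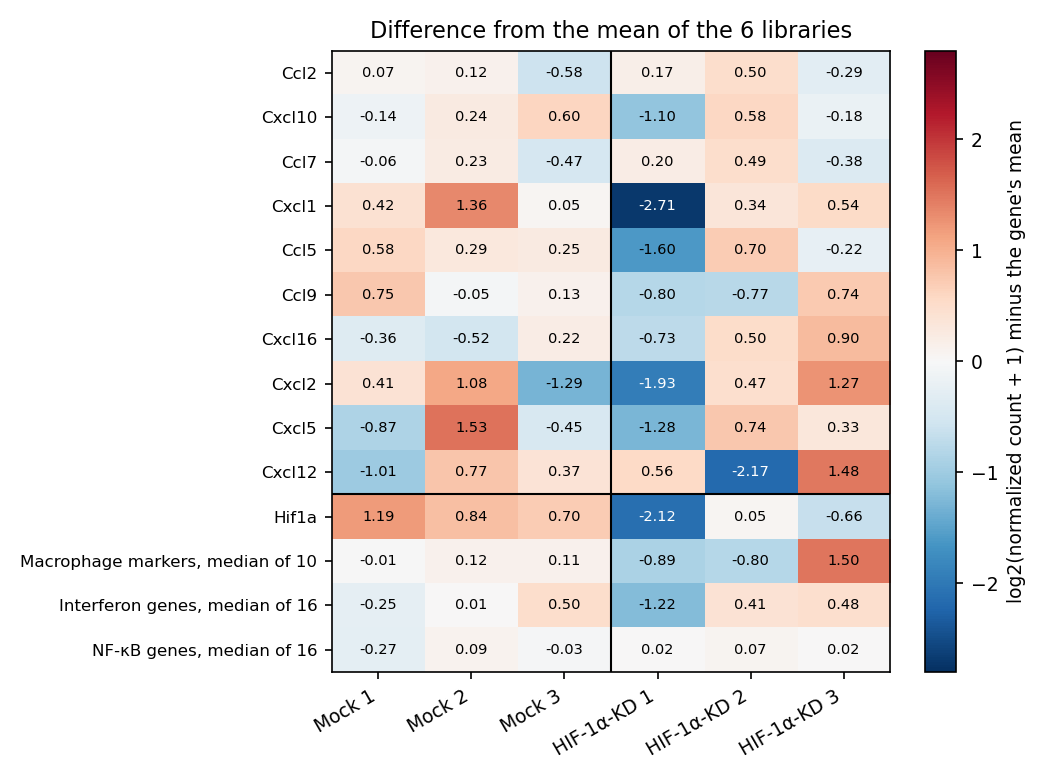
Difference of log2 (normalized count plus 1) from the mean of the 6 libraries, for each ligand, Hif1a and the medians of 3 gene lists, with blue below and red above the mean. HIF-1α-KD replicate 1 shows -2.71 for Cxcl1, -1.60 for Ccl5, -2.12 for Hif1a, -1.22 for the median of the interferon genes and -0.89 for that of the macrophage markers, but 0.17 for Ccl2 and 0.02 for the median of the NF-κB genes.

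The interferon genes were low in the same library. Of 16 interferon response factors and targets, 12 had their lowest normalized count in HIF-1α-KD replicate 1. Rsad2, an antiviral protein induced by interferon, had 22.5, 18.6 and 16.1 FPKM in Mock and 2.42, 10.4 and 14.5 FPKM in HIF-1α-KD libraries (log2 fold change -1.46, limma adjusted p = 0.342). Irf7, which drives type I interferon genes, had 3.27 FPKM in that library and between 14.2 and 25.9 FPKM in the other 5 (log2 fold change -1.05, limma adjusted p = 0.493). Irf1 and Gbp2, targets of interferon γ, had log2 fold changes of 0.32 and 0.44 (limma adjusted p = 0.474 and 0.751), and both were highest in HIF-1α-KD replicate 2, where Cxcl10 and Ccl5 were also highest in FPKM. Bst2, the most abundant of the list, had a log2 fold change of 0.16 (limma adjusted p = 0.831). Over the list, 0 of 16 passed the adjusted and 1 (Rsad2) the unadjusted threshold, against 12.7% of all genes, and the median log2 fold change was -0.01.

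Of 16 NF-κB subunits, kinases and feedback inhibitors, 0 had an adjusted p-value under 0.05 and 3 an unadjusted one, against 0.391% and 12.7% of all genes, with a median log2 fold change of 0.09. Rela, the main activating subunit, lay between 40.4 and 62.1 FPKM (log2 fold change 0.03, limma adjusted p = 0.949), and Nfkb2 had a log2 fold change of 0.34 (limma adjusted p = 0.607). The 3 were Relb, a subunit of the noncanonical pathway (log2 fold change 0.45, limma adjusted p = 0.384), and the inhibitors Nfkbie (0.73, limma adjusted p = 0.296) and Nfkbia (-0.56, limma adjusted p = 0.384). Nfkbia, a feedback target of the pathway, had 84.7, 135.2 and 92.3 FPKM in Mock and 50.04, 92.6 and 79.2 FPKM in HIF-1α-KD libraries. It was lowest in HIF-1α-KD replicate 1, whereas Relb (27.6 FPKM), Nfkbie (27.5 FPKM) and Nfkb2 (133.1 FPKM) were highest in that library.

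Among 9 factors that control the decay of chemokine mRNA, 0 passed the adjusted and 1 the unadjusted threshold, against 12.7% of all genes, with a median log2 fold change of 0.07. The 1 was Zfp36, which encodes tristetraprolin and binds AU-rich elements such as those of chemokine mRNA. It had 51.6, 90.5 and 49.4 FPKM in Mock and 8.29, 28.3 and 31.3 FPKM in HIF-1α-KD libraries. In normalized counts the groups were without overlap for 2 of the 9, Zfp36 and Zfp36l1, against 19.2% of all genes. With a log2 fold change of -1.71 (SE 0.46) Zfp36 missed the adjusted threshold (limma adjusted p = 0.238). The related Zfp36l1 (-0.28, limma adjusted p = 0.466) and Zfp36l2 (-0.34, limma adjusted p = 0.632) and Hnrnpd (0.09, limma adjusted p = 0.851), which binds the same elements, did not pass the test.

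Of the 12 genes listed as sheddases, proteases and glycan carriers of chemokines, 10 were tested and 1 passed the adjusted threshold, the only call among the 70 tested genes outside the 10 ligands that belong to chemokine ligands, receptors and their regulators, where 0.391% of all genes were called. Sdc4, which encodes syndecan-4, a heparan sulfate proteoglycan of the cell surface that can hold chemokines, had 162.1, 150.5 and 185.1 FPKM in Mock and 90.7, 86.0 and 98.2 FPKM in HIF-1α-KD libraries. It fell by 0.91 on the log2 scale (SE 0.15, limma adjusted p = 0.0447), without overlap of the groups. The fall was between -1.01 and -0.81 under 16 alternatives, of which 5 kept it under the threshold and 11 did not (adjusted p between 2.99e-05 and 0.216). Mmp9, a protease that trims several chemokines, had 83.3, 285.5 and 373.5 FPKM in Mock and 1534, 472.1 and 319 FPKM in HIF-1α-KD libraries (log2 fold change 1.51, limma adjusted p = 0.392). Mmp14, Sdc2 and the glypican Gpc1 had log2 fold changes of 0.43, 0.05 and 0.74 (limma adjusted p between 0.469 and 0.931).

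Of the 27 other chemokine ligands listed, 26 were in the table and 11 were tested, with 0 at the adjusted and 0 at the unadjusted threshold, and a median log2 fold change of -0.04. Cx3cl1, the membrane-bound fractalkine, was the most abundant, at 20.4 ± 7.47 FPKM (SD, n = 6), close to Ccl5. Cxcl9, which shares its receptor and its induction by interferon γ with Cxcl10, had 2.52, 2.21 and 11.3 FPKM in Mock and 4.33, 43.3 and 8.97 FPKM in HIF-1α-KD libraries (log2 fold change 1.52, limma adjusted p = 0.496). Its highest library, HIF-1α-KD replicate 2, was that of Cxcl10 and Ccl5 in FPKM, but its lowest was Mock replicate 2. Ccl25, a thymic and intestinal ligand of CCR9, was the only tested ligand without overlap of the groups (19.2% of all genes were without overlap), at 6.27 to 8.79 FPKM in Mock and 9.74 to 10.9 FPKM in HIF-1α-KD libraries (log2 fold change 0.35, limma adjusted p = 0.557). Ccl28 had a log2 fold change of -0.82 (limma adjusted p = 0.422).

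Transcripts of the receptors for these ligands were scarce. Of 23 receptor genes, 8 had no read in any library and 8 were tested, with 0 at the adjusted and 3 at the unadjusted threshold (12.7% of all genes) and a median log2 fold change of -0.27. Ackr3, an atypical receptor that takes up CXCL12, was the most abundant, with 18.5, 13.0 and 26.4 FPKM in Mock and 14.8, 12.1 and 9.71 FPKM in HIF-1α-KD libraries (log2 fold change -0.68, limma adjusted p = 0.387). Ccr2, the receptor for Ccl2 and Ccl7, had between 0.271 and 0.495 FPKM in Mock and between 0.688 and 0.939 FPKM in HIF-1α-KD libraries (log2 fold change 1.06, limma adjusted p = 0.293). Ccr7 had a log2 fold change of 1.21 (limma adjusted p = 0.339). Cx3cr1, a receptor of monocytes and macrophages, had 6.89 FPKM in HIF-1α-KD replicate 3, the library with the most macrophage markers, against at most 2.07 FPKM in the other 5, and its log2 fold change was 0.17 (limma adjusted p = 0.930).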

How the data were processed

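RNA of sorted MC-38GFP cells was compared between 3 Mock and 3 HIF-1α-KD libraries, grouped by their labels. Reads were trimmed, aligned by STAR and counted by featureCounts by the authors. The paper names GRCh38, whereas the submitters' processing notes name GRCm38 and the genes carry mouse identifiers. The authors deposited normalized counts, a signal of counts divided by a factor per library, and FPKM. Their own log2 ratio, p-value and false discovery rate were not used. Reads recovered from the normalized counts were whole for 100% of values up to 300 reads (within 0.1 read).

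Genes were filtered with filterByExpr of edgeR 4.0.16 (minimum count of 10) and log2 of the normalized count plus 1 was tested with limma 3.58.1 (trend, two-sided, Benjamini-Hochberg adjustment over 12014 genes). Alternatives used edgeR, DESeq2 1.42.0, other scaling, no filter, pseudocounts of 0.1 and 10, a replicate block and leaving out each library. Positions came from GENCODE for GRCm38, with transcripts compared in stretches of 50 bases. The genes named are the 10 ligands, Hif1a and, from each list, the 3 with the smallest p, the 3 with the highest mean FPKM and any at an adjusted p under 0.05. The ligands and lists were chosen with earlier results of these data known, and Ccl27a was read from the row with the most reads. Some genes that the rule would name are not reported here.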

Additional observations from a re-analysis of the deposited data

How the results depend on the processing

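No ligand passed the adjusted threshold under any of 16 alternatives (limma, edgeR or DESeq2, 8 ligands, 128 fits, lowest adjusted p = 0.258), and the sign held in 123 fits. The other 5 were fits of Cxcl2, at 0.0368 with edgeR, 0.0577 with DESeq2, 0.04 without Mock replicate 1, 0.38 without Mock replicate 2 and 0.80 without HIF-1α-KD replicate 1. Over all 6 analyses that left out a library Cxcl2 was between -0.81 and 0.80. At the unadjusted threshold there were 0 to 2 of 8 ligands with each library left out, against 8.42% to 12.9% of all genes, and 2 (Ccl9 and Cxcl1), against 10.3%, without Mock replicate 3 and HIF-1α-KD replicate 3 together, the libraries with the most epithelial and macrophage marker reads. Groups without overlap numbered 0 to 2 of 8 ligands with each library left out, against 25.97% to 31.07% of all genes, and 3 (Ccl2, Ccl9 and Cxcl1) without both, where 44.3% of all genes did not overlap. Leaving out both libraries and limma without trend were chosen after seeing the data.

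Over all genes, 1 was higher and 46 were lower. These counts were 0 and 47 with edgeR, 96 and 187 with DESeq2, 0 and 0 without both libraries, and 0 and 1 for limma without trend, and 0 to 6 higher and 0 to 32 lower when single libraries were left out. With a replicate block they were 0 and 0 (1324 genes at an unadjusted p under 0.05). The correlation of deviations of equally numbered libraries was -0.139, -0.123 and 0.0228, so the numbers were not taken as pairs. The block called 0 ligands, as did the analysis without it. Of the other lists, 1 gene (Sdc4) was called, against 2 with DESeq2 (Sdc4 and Zfp36), 0 with edgeR, with scaling by library size alone, with the block, without both libraries, with limma without trend and in all 6 analyses that left out a library. The order by abundance kept at least 8 of 10 ranks in the 7 alternatives run for it, reads per kilobase with TMM library sizes and leaving out each library.

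Depth limits Cxcl5 (2 to 18 reads), Cxcl12 (0 to 10 reads) and Cxcl2 (16 to 116 reads). For 6 of 8 tested ligands the 95% interval reached a change of 2-fold.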
